A study of Mus musculus with 4 samples.

Results

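The genes described here drive the cell division cycle: 48 cyclins, cyclin-dependent kinases (CDKs), E2F and RB factors, replication genes and mitosis genes, taken by name for their known roles, without the CDK inhibitors. All 48 were found among the 24312 genes of the deposited table, and all 48 passed the filter on low counts. They fall into 9 G1 cyclins, CDKs and their activator, 7 E2F and RB factors, 13 replication genes and 19 mitosis genes. The cells were P14 CD8 T cells, mouse T cells with a transgenic receptor for the gp33 peptide of lymphocytic choriomeningitis virus, on the C57BL/6 strain background. One group carried MIG, the empty MSCV-IRES-GFP retrovirus, and the other carried MIG-BATF, in which the viral promoter drives BATF, an AP-1 family transcription factor. Both groups went through the same culture of 1 day with gp33 at 100 ng/ml before the virus and 1 day after it, 2 days of growth in IL-2 at 10 ng/ml, a sort for CD8+ GFP+ cells and 2 last days in IL-2 at 1 ng/ml. Each group had 2 libraries of poly(A) RNA, which the design text calls biological replicates. Nothing in the labels says whether they came from separate mice, so p-values measure only the spread between these libraries, which may be technical. The age and sex of the mice were not known here, and BATF was tested only at the level that the virus gave.

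In a dividing T cell, D-type cyclins with CDK4 and CDK6, and then cyclin E with CDK2, phosphorylate the RB family. E2F factors are thereby released and switch on the genes of DNA replication, and a later wave of transcription, which includes cyclin B, the mitotic kinases and the centromere proteins, precedes mitosis. IL-2 keeps activated CD8 T cells cycling, and transcripts of the later wave are scarce in resting T cells.

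The libraries held 19004726 to 24795707 fragments. Batf was measured first as a check of the labels and stood at 36.1 and 26.5 CPM (counts scaled to library size and composition) in MIG and at 1342 and 934 CPM in BATF, with fragments of the vector and of the cells' own gene not separated. All 10 markers of CD8 T cells were present, none below 175 CPM in a library, and their summed level was 4439 and 4248 CPM in MIG and 3676 and 3942 CPM in BATF. Markers of other cells were low. Of the 6 B cell, 8 myeloid and dendritic, 3 NK and gamma-delta and 8 erythroid, platelet and stromal markers found, 5, 7, 3 and 7 stayed under 1 CPM in every library. The exceptions were Cd79b, Itgam and Pecam1, and the summed levels of these lists were 12.1 to 18.3, 4.64 to 10.0, 0.735 to 1.21 and 55.6 to 89.7 CPM. Cd4 itself stayed between 0.490 and 0.791 CPM, while the 4 markers of CD4 and regulatory T cells summed to 27.0 and 20.9 CPM in MIG and 47.7 and 37.4 CPM in BATF, nearly all of it Zbtb7b. The part of these marker levels in the results below was not tested.

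The cell cycle genes stood at nearly the same level with and without added BATF. Their 48 transcripts together summed to 15315 and 15115 CPM in the MIG libraries and to 15271 and 15105 CPM in the BATF libraries. No member reached an adjusted p under 0.05 in edgeR (quasi-likelihood fit, Benjamini-Hochberg over all genes), where 1.09% of the 13008 genes tested were called. DESeq2 (2.73% of genes called), limma-voom (0.946%) and limma on log2(FPKM + 1) (0.338%) called no member either. At an unadjusted p under 0.05, edgeR had 1 member, Rbl2, against 10.8% of all genes.

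Fold changes between the groups were small throughout. The log2 fold change, BATF minus MIG, ran from −0.16 for Cdt1 to 0.32 for Rbl2, with 23 members above 0 and 25 below. Its median was −0.0011, beside −0.0056 over all genes tested, and its median size was 0.0518, beside 0.123 over all genes tested and 0.0812 over the 6906 expressed at least as highly as E2f3, the second lowest member. The 95% interval of the log2 fold change lay within ±0.5 for 44 members and within 1 (a 2-fold change) for all 48. Of all genes tested, 51.8% had intervals within ±0.5, and of those 6906 genes 81.8% did. The 4 members whose intervals reached beyond ±0.5 were Ccnd1, Cdk6, Rbl2 and Cdc25b. For Rbl2 the interval was not a wide one but lay above 0, from 0.13 to 0.51. A p that misses the threshold does not show equal levels, and these intervals give the size of difference that each gene's data still allow.

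**Figure D1:**
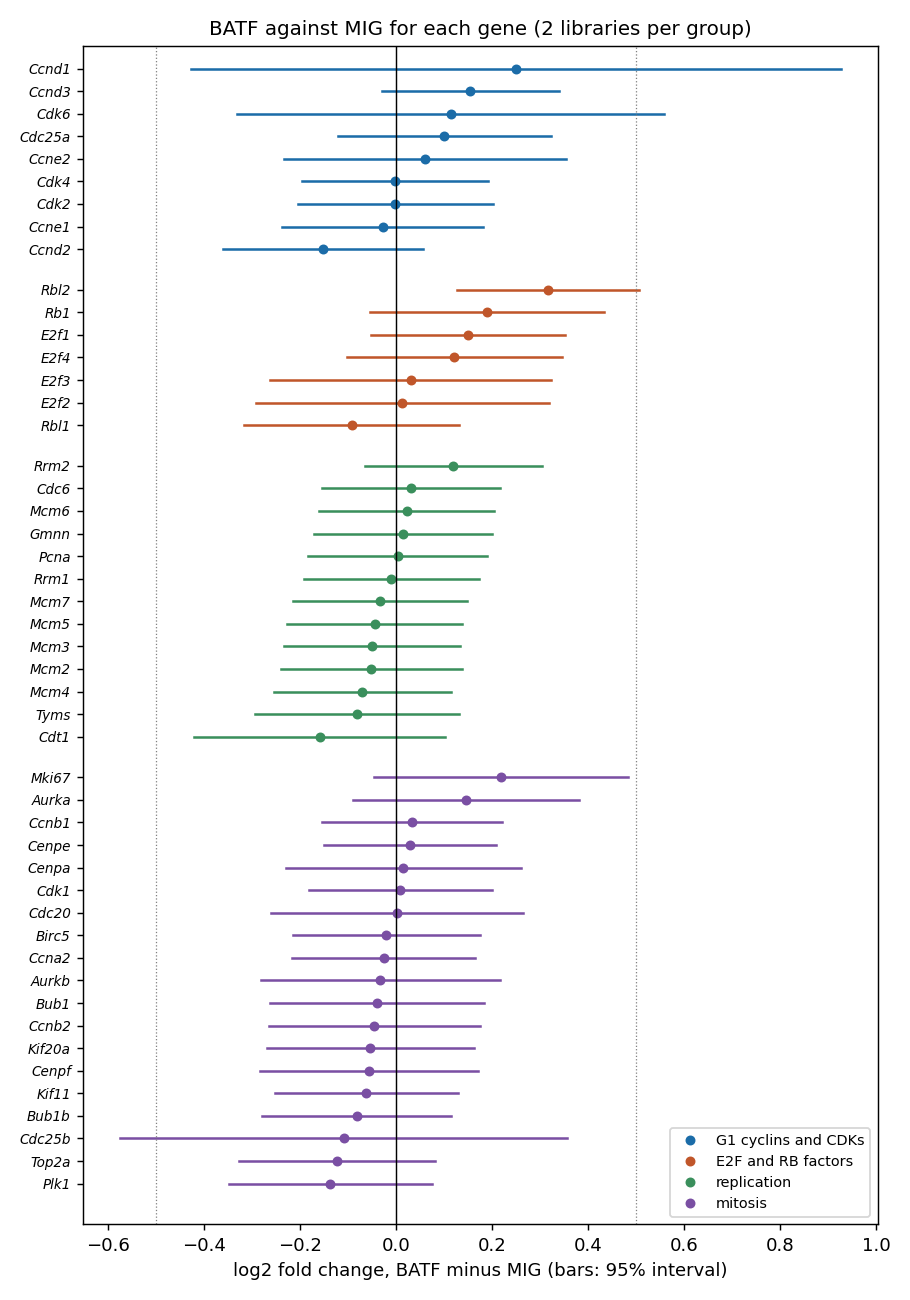
Log2 fold change between BATF and MIG (x axis, positive where BATF is higher) for each of the 48 genes (y axis), in 4 groups by role. Points are edgeR estimates from 2 libraries per group, lines their 95% intervals and dotted lines mark ±0.5. The Rbl2 interval, from 0.13 to 0.51, is the one that does not cross 0, and no gene passed after adjustment.

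In 15 of the 48 members the libraries of the groups did not overlap, 9 with BATF higher and 6 with BATF lower, beside 38.7% of all genes tested. The share of the members was 31.2%. For many members the libraries of a single group lay further apart than the group means. The size of the log2 ratio between the MIG libraries exceeded that of the log2 fold change in 40 of 48 members, and the ratio between the BATF libraries did so in 22, although a difference between single libraries varies more than one between means. Of all 13008 genes tested, 7946 did so in MIG and 6755 in BATF, and of the 6906 genes 4452 and 3434. The median size of the log2 ratio between the libraries of a group was 0.120 in MIG and 0.0412 in BATF for the members, beside 0.187 and 0.131 over all genes tested and 0.139 and 0.0826 over the 6906 genes.

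**Figure D2:**
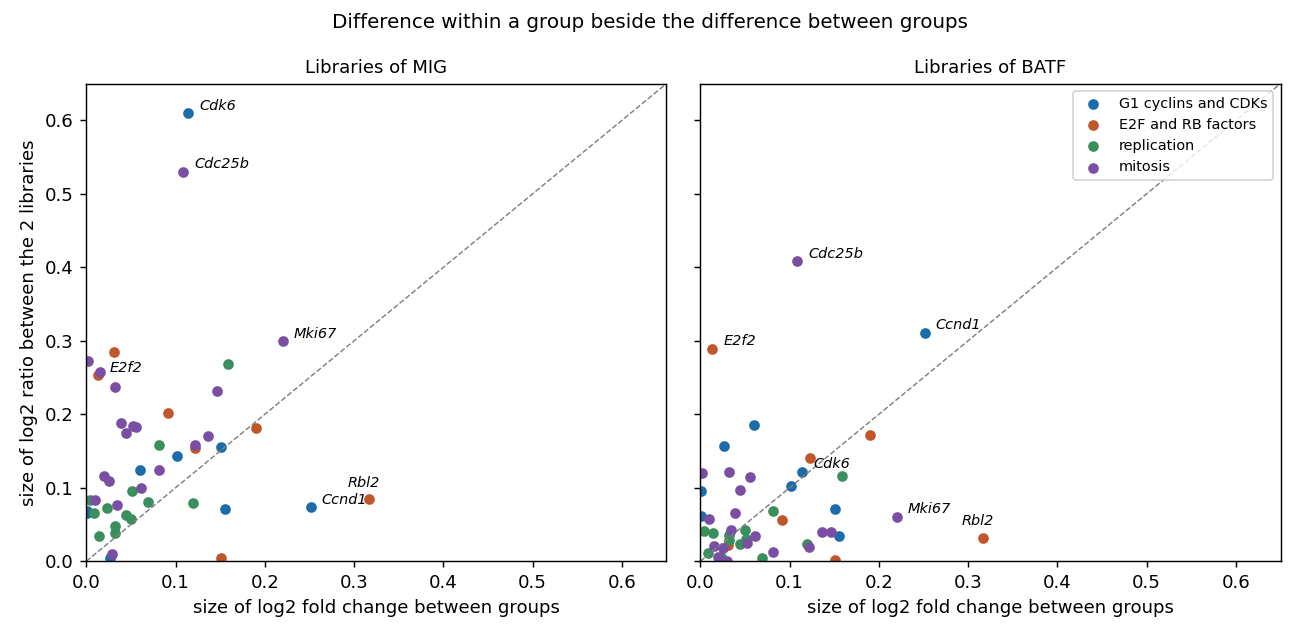
Size of the log2 ratio between the 2 libraries of a group (y axis; MIG left, BATF right) against the size of the log2 fold change between the groups (x axis) for each of the 48 genes, coloured by role. Genes above the dashed line differed more within the group than between groups, as did Cdk6 and Cdc25b in MIG, with log2 ratios of 0.61 and 0.53 in size.

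The D-type cyclins, the regulatory subunits of CDK4 and CDK6, were led by Ccnd3. Per transcript length, Ccnd3 stood at 236 ± 14.9 FPKM (fragments scaled to transcript length and library size; SD over all 4 libraries), Ccnd2 at 89.4 ± 6.54 and Ccnd1 at 0.477 ± 0.0655, with no overlap between the 3. Ccnd1 rested on only 32 to 40 fragments in a library, while every other member had 499 to 41477.

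Ccnd3 was measured at 396 and 416 CPM in MIG and at 446 and 457 CPM in BATF, so that both BATF libraries were higher. Its log2 fold change was 0.16 (95% interval −0.03 to 0.34, edgeR adjusted p = 0.580). Ccnd2 went the other way, with 506 and 563 CPM in MIG and 469.5 and 493 CPM in BATF. Its groups did not overlap either, and its log2 fold change was −0.15 (95% interval −0.36 to 0.06, edgeR adjusted p = 0.658). Ccnd1 stood at 1.63 and 1.55 CPM in MIG and 2.11 and 1.70 CPM in BATF. Its log2 fold change of 0.25 had the widest interval of all members, from −0.43 to 0.93.

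Cdk4, a catalytic partner of the D-type cyclins, was expressed at 221 ± 10.6 FPKM, a level that overlapped that of Ccnd3, and Cdk6 at 30.7 ± 4.95 FPKM. The Cdk4 libraries gave 264 and 252 CPM in MIG and 249 and 266 CPM in BATF, which overlapped (log2 fold change −0.00, 95% interval −0.20 to 0.19). Cdk6, the other such partner, was measured at 54.0 and 82.5 CPM in MIG and at 70.7 and 76.9 CPM in BATF, so both BATF libraries fell between the MIG libraries. Its log2 fold change was 0.11, with edgeR adjusted p = 0.936. Without MIG replicate 2, the higher MIG library, the log2 fold change was 0.44 and Cdk6 was the 1 member called (edgeR adjusted p = 0.0269), in a fit that called 4.27% of genes, and without MIG replicate 1 it was −0.16. The call thus turned on which MIG library was kept.

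The E-type cyclins, which activate CDK2 at the entry into S phase, overlapped between the groups. Ccne1 gave 94.5 and 94.7 CPM in MIG and 87.8 and 97.9 CPM in BATF, and the lower Ccne2 gave 25.8 and 28.2 CPM in MIG and 26.3 and 29.9 CPM in BATF. Cdk2 itself stood at 69.9 and 66.6 CPM in MIG and 69.7 and 66.8 CPM in BATF. Cdc25a, the phosphatase that removes the inhibitory phosphates of CDK2, was at 69.0 and 76.2 CPM in MIG and at 75.0 and 80.6 CPM in BATF. None of these 4 genes separated the groups. Over the 9 G1 genes the median log2 fold change was 0.06, with 5 above 0. That median was 0.035 and 0.12 when MIG replicate 1 or 2 was dropped, and 0.0928 and 0.0293 when BATF replicate 1 or 2 was.

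**Figure D3:**
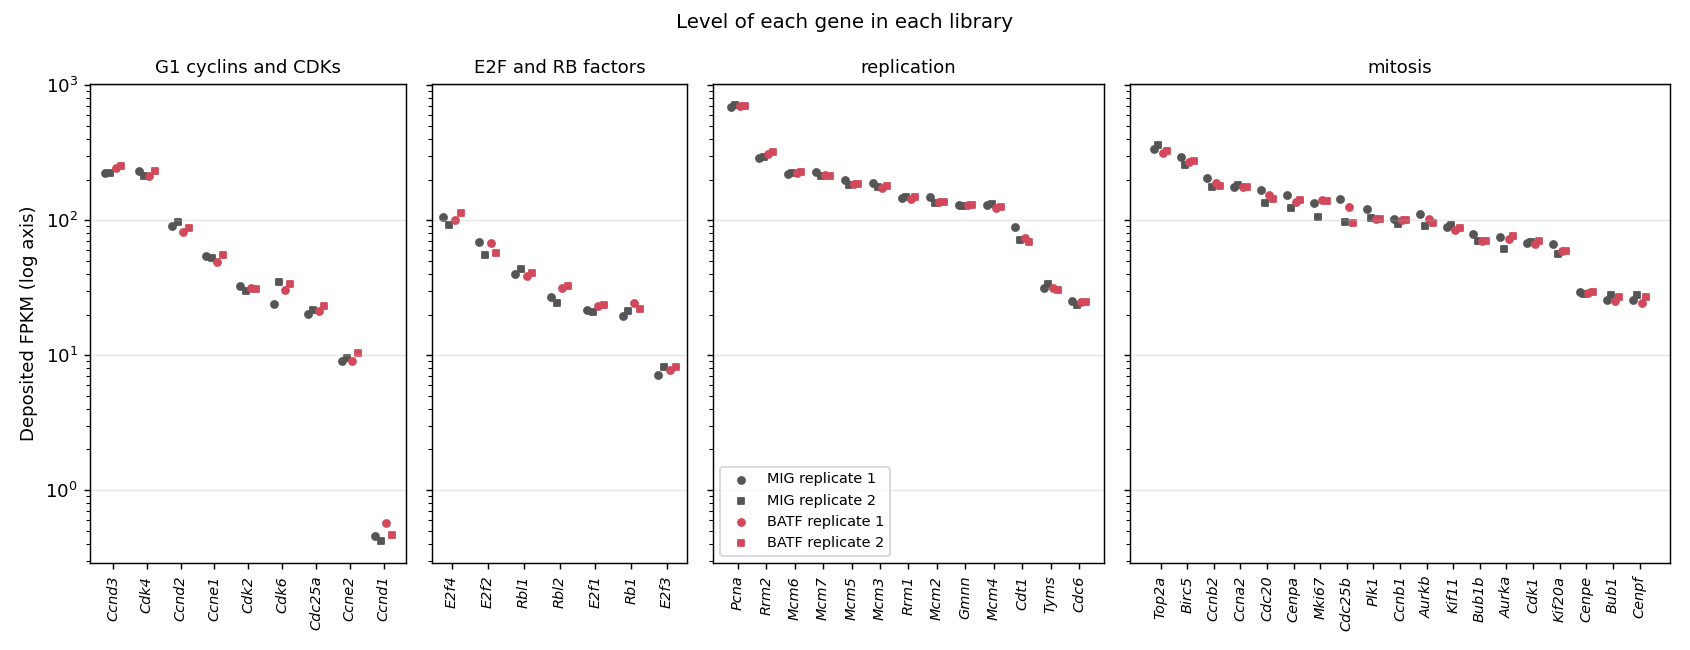
Deposited FPKM (y axis, log scale) of each of the 48 genes (x axis, ordered by mean level within a role) in each of the 4 libraries. Grey marks are MIG and red marks BATF libraries, circles replicate 1 and squares replicate 2. Levels run from 0.477 FPKM for Ccnd1 to 702 FPKM for Pcna, and the 4 libraries of a gene lie close together on this scale.

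Of the RB family and the E2F factors, 6 of 7 were above 0, with a median log2 fold change of 0.12. With all 4 libraries and no covariate, edgeR called none. That median was 0.149 and 0.146 when MIG replicate 1 or 2 was dropped, and 0.103 and 0.149 when BATF replicate 1 or 2 was. Of those above 0, E2f2 and E2f3 stood at only 0.01 and 0.03, and both turned negative in fits with 1 library left out. Rbl2, which encodes p130, the RB relative that partners E2F4 in quiescent cells, had the highest log2 fold change of all 48 members with all 4 libraries. With 1 library left out, that place went to Mki67 (0.38, without MIG replicate 1), Cdk6 (0.44, without MIG replicate 2) or Ccnd1 (0.40, without BATF replicate 2), and Rbl2 kept it only without BATF replicate 1. Rbl2 was measured at 127 and 120.03 CPM in MIG and at 152 and 156 CPM in BATF. Both BATF libraries were higher, but the difference did not pass after adjustment over all genes (log2 fold change 0.32 ± 0.08 SE, 95% interval 0.13 to 0.51, unadjusted p = 0.0056, edgeR adjusted p = 0.164). Over the other fits by edgeR without a block, DESeq2 and limma, the adjusted p ran from 0.0893 without MIG replicate 1 to 0.744 without BATF replicate 2, and the log2 fold change from 0.27 to 0.36.

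Rb1, which encodes the retinoblastoma protein, gave 86.6 and 98.1 CPM in MIG and 112 and 99.1 CPM in BATF. The groups were separated only narrowly, at 98.1 and 99.1 CPM, and the log2 fold change was 0.19 (edgeR adjusted p = 0.617). Rbl1, which encodes p107, the RB relative of cycling cells, gave 165 and 190.2 CPM in MIG and 164 and 169.98 CPM in BATF, which overlapped, with a log2 fold change of −0.09. Per transcript length the order was Rbl1 at 40.6 ± 1.99, Rbl2 at 28.9 ± 3.76 and Rb1 at 21.9 ± 2.03 FPKM (SD, n = 4), and the ranges of Rbl2 and Rb1 met at 24.5 FPKM.

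Among the E2F factors, the activator E2f1 had the tightest libraries, at 54.4 and 54.6 CPM in MIG and 60.4 and 60.5 CPM in BATF. Its groups did not overlap, and its log2 fold change of 0.15 did not pass (95% interval −0.05 to 0.35, edgeR adjusted p = 0.642). The activator E2f2 gave 317 and 266 CPM in MIG and 323 and 265 CPM in BATF, so that the difference within each group far exceeded that between them (log2 fold change 0.01). Replicate 1 was the higher E2f2 library in both groups. E2f3, the other activator, gave 34.3 and 41.8 CPM in MIG and 38.5 and 39.2 CPM in BATF, with both BATF libraries between the MIG libraries.

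E2f4, a repressor that acts with Rbl1 and Rbl2, gave 189.6 and 170.5 CPM in MIG and 186 and 206 CPM in BATF, and the groups overlapped (log2 fold change 0.12, edgeR adjusted p = 0.794). The order of levels per transcript length was E2f4 at 103 ± 9.04, E2f2 at 62.3 ± 6.96, E2f1 at 22.2 ± 1.34 and E2f3 at 7.83 ± 0.515 FPKM (SD, n = 4). No pair of neighbours in that order overlapped in any library.

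The replication genes differed little between BATF and MIG. Of 13 members, 5 were above 0 and 8 below, the median log2 fold change was −0.03, and all 13 intervals stayed within ±0.5. Dropping MIG replicate 1 brought that median to −0.0088, dropping MIG replicate 2 to −0.0079 and dropping BATF replicate 2 to −0.0151. Their summed level was 5520.3 and 5566 CPM in MIG and 5523 and 5476 CPM in BATF. Mcm2 to Mcm7 encode the 6 subunits of the hexameric helicase that opens replication origins. Their mean levels spanned less than 2-fold, from 127 ± 3.97 FPKM for Mcm4 to 223 ± 2.30 FPKM for Mcm6 (SD, n = 4). Mcm5 gave 644 and 617 CPM in MIG and 617 and 607 CPM in BATF, with the middle libraries at 616.95 and 616.62 CPM. The log2 fold changes of the 6 ran from −0.07 for Mcm4 to 0.02 for Mcm6.

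Pcna, the sliding clamp of the replicative polymerases, was the most abundant member per transcript length, at 702 ± 6.59 FPKM. It was measured at 735 and 778 CPM in MIG and at 769 and 748 CPM in BATF, both BATF libraries between the MIG libraries. Rrm2 and Rrm1 encode the subunits of ribonucleotide reductase, which makes deoxynucleotides. Rrm2 gave 572 and 605 CPM in MIG and 634 and 645 CPM in BATF, with no overlap and a log2 fold change of 0.12 (95% interval −0.06 to 0.30, edgeR adjusted p = 0.712). Rrm1 gave 557 and 583 CPM in MIG and 564 and 569 CPM in BATF, again with BATF between the MIG libraries. Tyms, which makes thymidylate, gave 113 and 126 CPM in MIG and 116 and 110.3 CPM in BATF.

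Cdc6 and Cdt1 load the helicase onto origins, and geminin, the product of Gmnn, holds Cdt1 in check. Cdc6 gave 109 and 106 CPM in MIG and 111 and 109 CPM in BATF, and Gmnn gave 100.4 and 103 CPM in MIG and 104 and 101 CPM in BATF. Both genes were thus alike in the 4 libraries, with SDs of 0.695 FPKM around 24.7 for Cdc6 and 1.06 FPKM around 129 for Gmnn. Cdt1 had the lowest log2 fold change of all members, −0.16, from 177 and 147 CPM in MIG and 151 and 139 CPM in BATF. Its groups overlapped, and its 95% interval ran from −0.42 to 0.10 (edgeR adjusted p = 0.747). Dropping MIG replicate 1 gave −0.0138 and dropping MIG replicate 2 gave −0.29 for its log2 fold change, and with any 1 library left out Ccnd2 or Cdc25b was the lowest member instead.

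**Figure D4:**
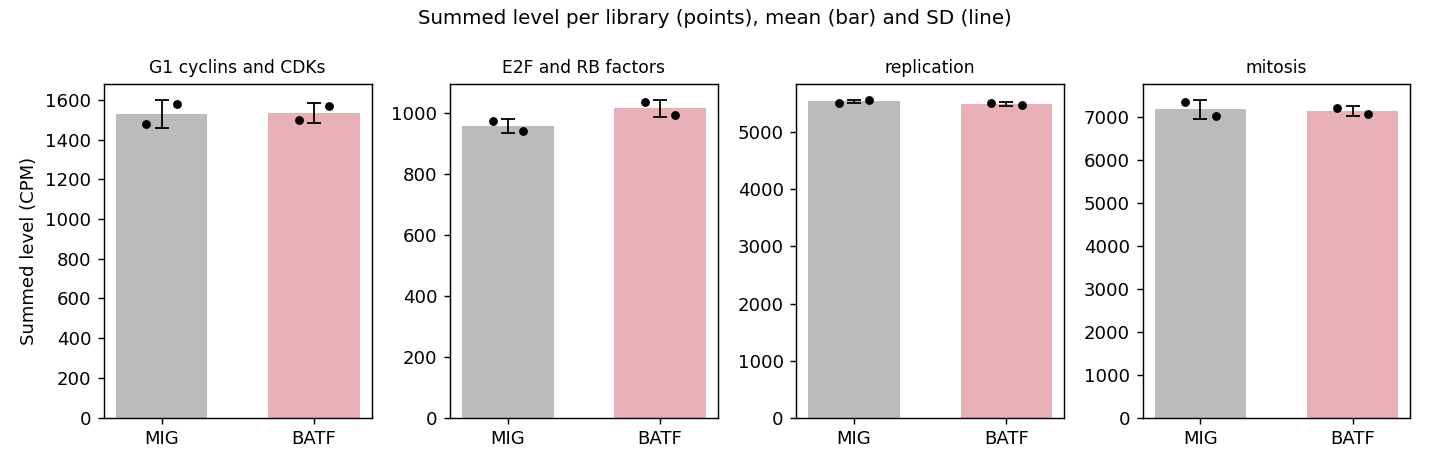
Summed CPM (y axis, from 0) of the genes of each role in MIG and BATF. Points are the 2 libraries of a group, bars their mean and lines the SD, and the ratio of BATF to MIG is 1.00 for the G1 genes, 1.06 for E2F and RB factors, 0.992 for replication and 0.994 for mitosis.

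The mitosis genes gave a median log2 fold change of −0.03, with 7 of 19 above 0, and summed to 7340.4 and 7027 CPM in MIG and 7216 and 7064 CPM in BATF. Without MIG replicate 1 that median was 0.04, and without BATF replicate 2 it was −0.0165. Cyclin A and the B-type cyclins, which activate Cdk1 for entry into mitosis, overlapped between the groups. Ccna2 gave 461 and 497 CPM in MIG and 474 and 468 CPM in BATF, Ccnb1 gave 217 and 206 in MIG and 219.8 and 213 in BATF, and Ccnb2 gave 276.5 and 245 in MIG and 261 and 244 in BATF. Cdk1, the mitotic kinase, gave 179.9 and 190.6 CPM in MIG and 183 and 190.1 CPM in BATF.

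Cdc25b, a phosphatase that activates Cdk1, varied more within the groups than any other mitosis gene, with 412 and 285 CPM in MIG and 369 and 278 CPM in BATF. Its log2 fold change of −0.11 had an interval from −0.58 to 0.36. For Cdc25b too, replicate 1 was the higher library in both groups. Cdc20, which activates the anaphase-promoting complex, gave 264 and 219 CPM in MIG and 252 and 232 CPM in BATF, both BATF libraries inside the range of MIG.

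Mki67, the gene of the proliferation marker Ki-67, had the highest log2 fold change of the mitosis genes. It was measured at 1332 and 1083 CPM in MIG and at 1436 and 1377 CPM in BATF, so that the groups did not overlap while the MIG libraries lay further apart than the group means (log2 fold change 0.22, 95% interval −0.04 to 0.48, edgeR adjusted p = 0.587). Without MIG replicate 2, the lower library, the log2 fold change was 0.07, and without MIG replicate 1 it was 0.38 (edgeR adjusted p = 0.0614). Top2a, the topoisomerase that untangles sister chromosomes, lay on the other side, with 1695 and 1892 CPM in MIG and 1636 and 1659 CPM in BATF. Its groups did not overlap, and its log2 fold change was −0.12 (95% interval −0.33 to 0.08, edgeR adjusted p = 0.754). These 2 markers of dividing cells thus pointed in opposite directions, neither past the threshold. Such bulk values cannot tell a change in the share of dividing cells from a change in RNA per cell.

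The mitotic kinases were spread on both sides of 0 as well. Aurka gave 127 and 108 CPM in MIG and 128 and 132 CPM in BATF, with a log2 fold change of 0.15 (edgeR adjusted p = 0.739). Plk1 gave 243 and 215 CPM in MIG and 211 and 206 CPM in BATF, with a log2 fold change of −0.14 (edgeR adjusted p = 0.718). Neither gene overlapped between the groups. Aurkb, the kinase of the chromosomal passenger complex, gave 194 and 165 CPM in MIG and 183 and 168 CPM in BATF, and Birc5, which encodes survivin of the same complex, gave 239.5 and 221 CPM in MIG and 228 and 227 CPM in BATF. Both of these had the BATF libraries inside the range of MIG.

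Of the spindle checkpoint genes, whose products delay anaphase, Bub1 gave 105 and 120.2 CPM in MIG and 107 and 112 CPM in BATF. Bub1b gave 275 and 252 CPM in MIG and 250.3 and 248 CPM in BATF, which did not overlap (edgeR adjusted p = 0.876). Cenpe, a kinetochore motor, stood at 224 and 223 CPM in MIG and at 228 CPM in both BATF libraries, so that its groups did not overlap although its log2 fold change was only 0.03. Cenpa, the centromeric histone variant, and Cenpf, a kinetochore protein, overlapped between the groups, with ranges over the 4 libraries of 158 to 189 and 275 to 317 CPM. So did the spindle motors Kif11 and Kif20a, with ranges of 402 to 439.6 and 191 to 217 CPM.

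The promoters of these genes were searched for a few motifs. Genes and motifs were both picked from what is known of the cell cycle, so the shares below are a description and not independent support. Promoters came from a RefSeq table of build GRCm38.p6, which is not the mm9 build of the fragments, and 38 of 48 members matched it by symbol. Members without an entry were Ccnd1, Ccnd2, Ccne2, Rb1, E2f4, Gmnn, Mcm4, Ccna2, Aurkb and Kif20a. As 4 genes had 2 promoters, 42 were searched over the 250 bases before the start, on both strands. The shares count promoters, not genes. The 7 E2F and RB promoters held 2 each of E2f2 and E2f3, the 7 G1 promoters 2 of Ccnd3 and the 12 replication promoters 2 of Mcm7. CCAAT, the box bound by NF-Y, was in 15 of 16 mitosis promoters (93.8%), in 9 of 12 replication promoters (75.0%), in 3 of 7 G1 promoters and in 3 of 7 E2F and RB promoters, beside 33.8% of all 32851 promoters and 35.1% of those of tested genes. TTTGAA, the letters of the CHR element through which the MuvB complexes act on late cell cycle genes, was in 6 of 16 mitosis promoters (37.5%), each of which also held CCAAT, beside 16.0% of all promoters and 10.7% of those of tested genes. It was also in 3 of 7 E2F and RB promoters (42.9%), in 1 of 12 replication promoters and in none of the 7 G1 promoters. Both motifs together were in 5.55% of all promoters and in 3.93% of those of tested genes. TTTGGCGC or TTTCCCGC, 2 spellings of the E2F site, were in 4 of 12 replication promoters, 2 of 7 G1 promoters, 1 of 7 E2F and RB promoters and none of the 16 mitosis promoters, beside 1.30% of all promoters and 2.37% of those of tested genes. No match overlapped another in the member promoters. These are matches of letters in one window, not measured binding. With all 4 libraries and no covariate, edgeR called no member, with or without a match.

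Stretches of 150 bases that end at the base before the start are shown for Ccnb2, Cdk1 and Top2a, mitosis genes with repeated CCAAT boxes, and for Mcm6, a replication gene with both CCAAT and the E2F letters. Capitals mark the motifs (ATTGG is CCAAT and TTCAAA is TTTGAA on the other strand), and all 4 lie on the minus strand, at chr9:70421555-70421704, chr10:69352913-69353062, chr11:99024190-99024339 and chr1:128359706-128359855 of GRCm38.p6 in that order.
Ccnb2: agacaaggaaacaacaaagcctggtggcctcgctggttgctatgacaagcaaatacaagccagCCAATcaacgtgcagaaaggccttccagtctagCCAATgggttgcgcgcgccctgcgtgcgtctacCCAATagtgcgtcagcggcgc
Cdk1: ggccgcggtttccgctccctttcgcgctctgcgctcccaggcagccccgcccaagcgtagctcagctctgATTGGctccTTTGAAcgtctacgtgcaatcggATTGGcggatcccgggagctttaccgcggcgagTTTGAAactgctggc
Top2a: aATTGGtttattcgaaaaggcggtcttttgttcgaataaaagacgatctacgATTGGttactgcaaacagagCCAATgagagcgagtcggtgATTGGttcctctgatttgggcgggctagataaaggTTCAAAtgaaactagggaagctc
Mcm6: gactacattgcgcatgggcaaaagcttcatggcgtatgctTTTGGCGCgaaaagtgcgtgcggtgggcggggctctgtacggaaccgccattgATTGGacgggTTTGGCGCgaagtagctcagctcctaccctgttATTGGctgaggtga

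In Ccnb2 the CCAAT boxes begin 87, 54 and 21 bases before the start. In Mcm6 the TTTGGCGC matches begin 110 and 47 bases before it, and in Top2a the nearest TTTGAA match begins 23 bases before it. Ccnb2, Cdk1, Top2a and Mcm6 had log2 fold changes of −0.04, 0.01, −0.12 and 0.02.

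A wider list of 128 further cell cycle genes was compared in the same fit. Of these, 127 were found and tested, and edgeR called none in either direction, beside 1.09% of all genes. At an unadjusted edgeR p under 0.05 there were 5 (Tfdp2, Rfc3, Orc1, Gins2 and Pttg1), all higher in BATF. Of all genes tested 10.8% had such a p, 870 of them higher in BATF and 532 lower. The median log2 fold change was 0.01 over 23 E2F, DREAM and G1/S regulators, −0.04 over 46 replication genes and −0.02 over 58 mitosis genes.

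Tfdp2, which encodes the E2F partner DP2, had the highest log2 fold change of that list, from 25.7 and 20.9 CPM in MIG to 36.2 and 33.2 CPM in BATF (0.57 ± 0.14 SE, edgeR adjusted p = 0.148). Without MIG replicate 1 it was 0.73 and Tfdp2 was the 1 gene of the list that edgeR called (edgeR adjusted p = 0.0413), in a fit that called 1.79% of genes. Rfc3, a subunit of the clamp loader for PCNA, gave 46.7 and 46.0 CPM in MIG and 64.9 and 59.4 CPM in BATF (adjusted p = 0.120 in edgeR at a log2 fold change of 0.42). Pttg1, which encodes securin, gave 18.5 and 13.3 CPM in MIG and 24.3 and 20.1 CPM in BATF (adjusted p = 0.428 in edgeR at a log2 fold change of 0.48). In all 3 genes, which were picked for the highest log2 fold changes, both BATF libraries were higher than both MIG libraries. Over the wider list the groups did not overlap in 42 of 127 genes (33.1%), beside 38.7% of all genes tested. BATF was higher in 17 of these 42 genes and lower in 25.

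At the other end of the wider list the differences were smaller. Spc25, a subunit of the NDC80 kinetochore complex, gave 68.2 and 84.5 CPM in MIG and 62.2 and 68.0 CPM in BATF (log2 fold change −0.23). Its groups did not overlap, by a margin of 68.2 against 68.0 CPM. Cdk5rap3 gave 51.3 and 40.1 CPM in MIG and 41.5 and 37.5 CPM in BATF, which overlapped (log2 fold change −0.21, adjusted p = 0.723 in edgeR). Cdc25c, a phosphatase of Cdk1, gave 19.0 and 19.6 CPM in MIG and 17.6 and 16.4 CPM in BATF, which did not (log2 fold change −0.18, adjusted p = 0.742 in edgeR).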

How the data were processed

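Per the submitters' processing notes, the tools were TopHat2 2.1.1, Cufflinks 2.2.2 and Cuffdiff, on build mm9. No annotation or strand setting is given in those sources. The deposited table holds, per the file headers, estimated counts (fragments the authors' Cuffdiff run assigned to a gene before scaling, 97.6% of them whole numbers) and FPKM, fragments scaled to transcript length and library size. The table numbers replicates 0 and 1, read here as the titles' 1 and 2; no label ties them, so the numbers only name libraries. Replicates of a group differed beyond counting noise (chi-square per gene 17.7 in MIG, 9.49 in BATF).

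Counts were rounded, filtered with filterByExpr and TMM-scaled (factors 0.988 to 1.01), and tested with edgeR 4.0.16 under R 4.3.3 (quasi-likelihood, no covariate, Benjamini-Hochberg over 13008 genes, threshold 0.05). CPM are TMM-scaled, and 95% intervals use the standard error and the degrees of freedom of that test. No permutation test was run, since the smallest two-sided p that 2 libraries a group allow is 0.333. Alternatives were DESeq2 1.42.0, limma 3.58.1 (voom, and on log2 FPKM with pseudocounts 1 and 0.1), RLE factors, no filter, each library left out and a replicate block. Fits were tested on simulated data.

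Members and lists were chosen with earlier results of these data known. By the rule for named genes, values in every library are given for called members, D-type cyclins, E2F and RB factors, and in each role the 2 members highest in FPKM and the 2 highest and 2 lowest in log2 fold change, and, in the wider list, called genes and the 3 highest and lowest with at least 5 CPM. Values of other members were added, and Orc1 and Gins2 named, after they were seen.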

Additional observations from a re-analysis of the deposited data

How the results depend on the processing

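With 48 members tested, 0 were called by edgeR with RLE factors or no filter, DESeq2, limma-voom and the 3 limma fits on log2 FPKM. The range with 1 library left out was 0 to 1 (Cdk6, without MIG replicate 2). The wider list had 0 called in the same fits and 0 to 1 with 1 library left out (Tfdp2, without MIG replicate 1). Over all genes, 345 were called by DESeq2, 349 with no filter, 44 and 81 by limma on log2(FPKM + 1) and log2(FPKM + 0.1), 3 on log2(FPKM + 1) with no filter, and 248 to 589 with 1 library left out; the cause was not tested.

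The replicate numbers are shared by the groups, and no label says that a number marks a shared mouse, batch or day. Deviations of same-numbered libraries from their group means correlated at 0.181 over 13008 genes, which are not independent. With the replicate number as a block, which leaves 1 residual degree of freedom, edgeR called 1504 genes (11.6%), 2 members (Rbl2, edgeR adjusted p = 0.00087, and Mki67, 0.0336) and 4 genes of the wider list (Tfdp2, Rfc3 and Pttg1 higher, Spc25 lower).

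The sign differed from that with all libraries in 13 and 9 of 48 members when MIG replicate 1 or 2 was dropped, and in 7 and 6 when BATF replicate 1 or 2 was. Among the members chosen for library values by the rule, with Cdk6 and Cdc25b, the ranges of those whose sign turned were −0.108 to 0.0503 for Ccne1, −0.0505 to 0.0471 for Cdk4, −0.16 to 0.44 for Cdk6, −0.19 to 0.005 for Rbl1, −0.14 to 0.15 for E2f2, −0.10 to 0.17 for E2f3, −0.0327 to 0.0392 for Pcna, −0.36 to 0.18 for Cdc25b and −0.0833 to 0.0440 for Birc5, which was also 0.0062 in the 3 limma fits on log2 FPKM. Leaving out 1 library leaves its group with a single one, whose spread is then taken from the other group. At 32 to 40 fragments a library, depth limits only Ccnd1 among the members.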
